A study of Mus musculus with 4 samples.

Results

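Nupr1 (ENSMUSG00000030717, also called p8 or Com1) is 1 of the 28692 genes counted in 4 pools of mouse bone marrow stem and progenitor cells, and it was taken as the row with that symbol in every pool. It was selected on its measured difference in level between young and aged pools, so that difference is given as a description and is not tested. Cells were Lin-, Sca1+, cKit+ and Flt3- (HSPCs), sorted from male C57BL/6-CD45.2 mice of 2 to 3 months (young) or 17 to 18 months (aged), with no other treatment or allele, and captured with the 10x 3′ chemistry, which counts transcripts as UMIs. Each age had 2 pools of 2 or 3 mice, pool A processed at HalioDX and pool B at TGML. A pool thus stands for several animals. The p-values between ages measure the spread between 4 pools. Those of cell classes and of cells split by Nupr1 measure the spread of several sums per pool, with differences between pools taken off by the block. They do not measure the spread between animals. The pools are called young A, young B, aged A and aged B after their titles and source names, although the submitters' description gives young B as aged and aged A as young. The number of cells that the filter left in each pool equals the cell number the study's text gives for a pool of the age in its title.

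Nupr1 encodes a small, disordered, basic protein of the nucleus that is switched on by many cell stresses and that binds chromatin regulators. In other tissues it is known as a target of ATF4, the transcription factor made when kinases phosphorylate eIF2α in the integrated stress response, and it in turn modulates genes such as Trib3 and Ddit3. In blood stem cells it has been described as a regulator of quiescence. None of these roles was measured here.

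On GRCm38 (mm10), Nupr1 lies on the minus strand of chromosome 7. GENCODE vM21 gives the gene the span 126623249 to 126630861 with 6 transcripts, of which 1 is protein coding and has 3 exons between 126623249 and 126625676. RefSeq (GRCm38.p6) places the start site at 126625470, which is 206 bases downstream of the start of that coding transcript. In the 250 bases before the RefSeq start, a search on both strands found 1 copy of TTGCATCA, the composite of a C/EBP and an ATF half-site through which ATF4 is known to act. It covers the bases 110 to 103 before the start, a stretch that GENCODE counts as part of the first exon. The same window held 1 E-box (CACGTG) at bases 225 to 220 and 1 TATAA at bases 49 to 45 with the overlapping TTATA on the other strand, and no TGACGTCA (the cyclic AMP response element). TTGCATCA or its reverse complement TGATGCAA was present in 221 of 27025 RefSeq windows of this length (0.818%), against 6.05% for CACGTG and 23.5% for TATAA. Of 24 genes with a window in a list of 26 known ATF4 targets, 4 held the composite, namely Atf3, Chac1, Fgf21 and Slc7a11. These 5 windows of 30 bases are shown because they hold the motif that Nupr1 shares with listed ATF4 targets, with the motif in capitals and each read 5′ to 3′ on the strand of the gene:
Nupr1 (chr7:126625562-126625591, minus strand): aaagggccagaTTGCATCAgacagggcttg
Atf3 (chr1:191183425-191183454, minus strand): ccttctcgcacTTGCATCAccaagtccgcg
Chac1 (chr2:119351038-119351067, plus strand): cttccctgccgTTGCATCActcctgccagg
Fgf21 (chr7:45615611-45615640, minus strand): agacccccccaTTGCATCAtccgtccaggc
Slc7a11 (chr3:50443642-50443671, minus strand): acctggagaatTTGCATCAtcatgcagccc
In Nupr1 and Atf3 the motif sat at the same distance from the RefSeq start, 110 to 103 bases before it. A match of letters describes the window and does not show that a factor binds there.

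Of 15566 barcodes, 14915 cells were kept, with 16399999 to 36446168 UMIs per pool and a median of 5674.0 to 6719.0 UMIs per cell. The sort was visible in Kit (71.7 to 164 UMIs per 1000000, CPM) and Ly6a, which encodes Sca1 (164 to 355 CPM), while Flt3 mRNA was lower and ranged from 2.4 CPM in aged B to 48.0 CPM in young A. Aged pool A stood apart in immediate-early genes, whose 10-gene list summed to 3781 CPM against 368 to 1082 CPM in the other pools, and in plasma cell genes (1301 CPM against 93.7 to 362 CPM). The part of these genes in the results below was not tested, but each class result is also given per pool. Between 10 and 29 barcodes were shared by any pair of pools, and leaving out young cells that share a barcode with an aged pool moved Nupr1 from 12.8 to 12.7 CPM in young A and from 20.7 to 20.1 CPM in young B.

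Nupr1 was a rare transcript in young HSPCs and an abundant one in aged HSPCs. Its level, in CPM of all UMIs of the pool, was 12.8 in young A, 20.7 in young B, 372 in aged A and 549.5 in aged B. The exact 95% Poisson intervals, which cover counting error only, were 11.7 to 14.1, 18.6 to 23.1, 363 to 380 and 542 to 558. The ages did not overlap, and pool B exceeded pool A at both ages, 1.61-fold in young and 1.48-fold in aged cells. Within a platform the aged level was 28.9 times the young one on platform A and 26.5 times on platform B. On the log2 scale of the fit, the difference was 4.74 with a standard error of 0.22, the 42nd highest of 13555 genes with enough counts. By CPM, Nupr1 was the 320th and 199th most abundant of all listed genes in aged A and aged B, and the 7203rd and 4711th in young A and young B. In a bulk level of this kind, more cells with the transcript and more transcript per cell cannot be told apart, so both were counted per cell.

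Most aged cells carried Nupr1 and few young cells did. A Nupr1 UMI was found in 339 of 5189 cells of young A (6.53%), 190 of 2244 of young B (8.47%), 2366 of 3328 of aged A (71.1%) and 3624 of 4154 of aged B (87.2%). When every cell was thinned to 3000 UMIs, which leaves out 0, 50, 176 and 4 cells, these shares were 3.57%, 4.88%, 54.0% and 70.1%. Cells with 5 or more UMIs numbered 4 and 11 in young A and young B, and 525 (15.8%) and 1607 (38.7%) in aged A and aged B. The highest cell held 6 and 16 UMIs in the young pools and 28 and 38 in the aged pools. The aged cells were not alike. Among thinned cells, 46.0% of aged A and 29.9% of aged B had no Nupr1 UMI, where an even (Poisson) spread of the same mean would leave 32.0% and 18.3%. The variance over the mean of thinned UMIs was 2.03 in aged A and 1.80 in aged B. It was 1.23 in young A and 2.05 in young B, so a spread wider than Poisson was not particular to aged pools.

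**Figure D1:**
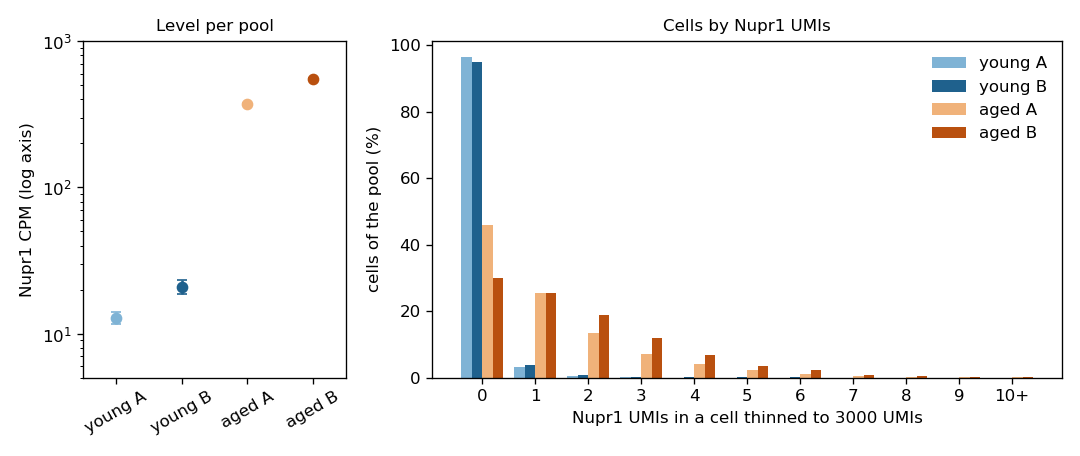
Left, Nupr1 level of each pool in CPM on a log axis, with exact 95% Poisson intervals. Right, share of cells (%) of each pool by the number of Nupr1 UMIs after thinning to 3000 UMIs; young cells sit almost entirely at 0 (96.4% and 95.1%), while aged cells spread from 0 to 5 and beyond.

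To place Nupr1 among cell types, cells were put into classes by lists of 10 marker genes. A cell joined a lineage class with at least 3 different markers of 1 lineage and no other, and the remaining cells were split into mitosis, S phase, HSC marker and unclassified cells. Over the cells of all 4 pools together, ages not kept apart, the HSC marker class was led by Cldn5, Meg3, Sbspon, Hoxb5 and Procr. In whole pools, Cldn5 was at 3.92 and 3.60 CPM in young A and young B and 99.0 and 142 CPM in aged A and aged B. Sbspon was at 0.631 and 0.854 CPM in young and 40.9 and 89.7 CPM in aged pools. In the HSC marker class Nupr1 stood at 15.9 and 34.5 CPM in young A and young B and at 455 and 669 CPM in aged A and aged B. At this minimum of 3 markers, every class of either aged pool (lowest 157 CPM, mitotic cells of aged A) stood above every class of either young pool (highest 34.5 CPM). This did not hold at 5 markers, where erythroid cells of aged B were at 16.5 CPM (3 UMIs in 17 cells) and HSC marker cells of young B at 35.7 CPM.

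In aged HSPCs, dividing and erythroid cells had less Nupr1 than HSC marker cells. Mitotic cells, named from genes such as Mki67, Cenpf and Hmmr, held 157 CPM in aged A (48 cells) and 275 CPM in aged B (146 cells). Their log2 difference from HSC marker cells was -1.38 (standard error 0.24, adjusted p = 0.000139 by edgeR's quasi-likelihood test with Benjamini-Hochberg adjustment), in a comparison where 8.11% of 10299 genes were called lower and 12.1% higher. Erythroid marker cells, with Klf1 and Car1 among their leading genes, held 276 CPM (107 cells) and 328 CPM (80 cells), a log2 difference of -0.81 (standard error 0.23, adjusted p = 0.0178), where 4.71% of genes were called lower and 10.8% higher. Without the pool as a block neither call passed (adjusted p = 0.464 for mitotic and 0.854 for erythroid cells), and DESeq2 gave 0.0772 for erythroid cells.

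The other classes did not pass the test at this minimum in cells at full depth. With every cell thinned to 3000 UMIs before classes were assigned, 3 of them passed, with log2 differences of -0.85 for S-phase (adjusted p = 0.0130), -0.89 for megakaryocyte (0.0401) and -1.02 for neutrophil cells (0.0295, all edgeR), and the difference of erythroid cells went from -0.81 to -2.85. The values that follow are at full depth. Neutrophil marker cells, with Elane and Mpo, held 392 CPM in aged A (287 cells) but 228 CPM in aged B (39 cells), and their log2 difference was -0.67 (standard error 0.23, adjusted p = 0.119). Megakaryocyte marker cells, with Pf4 and Gp9, held 397 and 506 CPM (log2 difference -0.32, standard error 0.22). S-phase cells, with Mcm2 to Mcm7, held 375 and 499 CPM (log2 difference -0.37, standard error 0.22). Unclassified cells held 262 and 607 CPM (log2 difference -0.37, standard error 0.23). T or innate lymphoid marker cells were few, at 258 CPM in 15 cells and 539.9 CPM in 30 cells (log2 difference -0.48, standard error 0.27). Basophil or mast marker cells held 345 CPM in 84 cells and 270.1 CPM in 9 cells and were not tested. Cells with B markers held 429 and 482 CPM (log2 difference -0.12, standard error 0.23). As 4 plasma cell genes and 3 B genes were among their 10 leading genes, that difference is not read as one of B cells. The shares of all genes called higher and lower in these fits were 3.81% and 0.184% for neutrophil, 3.92% and 0.398% for megakaryocyte, 1.7% and 0.0971% for S-phase, 0.0388% and 0.068% for unclassified, 0.223% and 0% for T or innate lymphoid cells, and 0.981% and 0.00971% for cells with B markers.

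**Figure D2:**
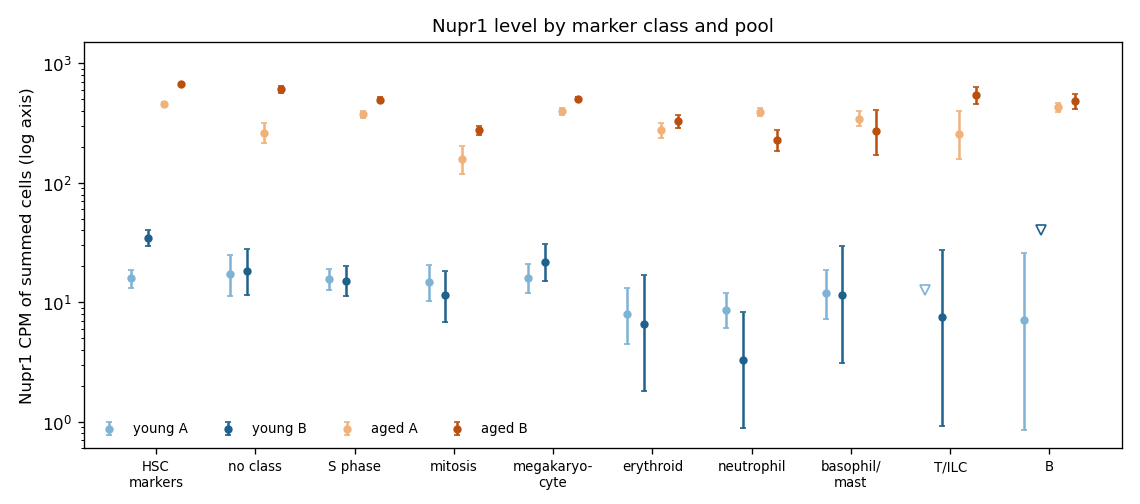
Nupr1 level (CPM on a log axis) of the summed cells of each marker class in each of the 4 pools, with exact 95% Poisson intervals; open triangles are upper limits of classes with no Nupr1 UMI. All aged points lie above all young points, and within aged pools mitotic cells (157 and 275 CPM) sit below HSC marker cells (455 and 669 CPM).

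Many cells with lineage markers stood near the minimum of 3. Among all kept cells of aged A, whatever their class, 147 had exactly 3 erythroid markers and 98 had more. Likewise, 407 had exactly 3 neutrophil markers and 165 had more. The erythroid and neutrophil classes of aged A held only 107 and 287 cells. In that pool 512 cells (15.4%) reached the minimum for more than 1 lineage and were in no class. How many members of a class had exactly 3 markers was not counted. With at least 4 markers, the erythroid level dropped to 91.7 and 81.5 CPM in aged A and aged B, a log2 difference of -2.58 (adjusted p = 4.37e-05 by edgeR), and neutrophil cells then passed the test, at 289 and 60.04 CPM and a log2 difference of -1.39 (adjusted p = 0.0147 by edgeR). With 5 markers, a setting added after the data were seen, neutrophil, megakaryocyte and S-phase cells all passed. The size of the difference thus moved with the minimum, and the number of markers was followed directly.

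Aged cells with 4 or more erythroid, megakaryocyte, neutrophil or basophil and mast markers had less Nupr1 than cells with none of that list. The T or innate lymphoid list did not show this up to 3 markers, nor did the B list in aged A. Nupr1 was at 371 CPM at 0 and 424 CPM at 2 T or innate lymphoid markers in aged A, and at 555 and 671 CPM in aged B. It was at 341 CPM at 0 and 433 CPM at 3 B markers in aged A. In aged A, Gata3 (54.2 CPM) and Rora (28.9 CPM) made up most of the first list's 107 CPM. Igkc (3143 CPM) made up most of the B list's 3774 CPM. Cells with these markers need therefore not be lymphoid cells. Too few thinned cells had 4 or more lymphoid markers to compare (2 to 12 cells a pool). At full depth, the B marker class with at least 4 markers held 324 CPM in aged A (35 cells) and 129 CPM in aged B (11 cells). HSC marker cells at that minimum held 459 and 672 CPM. The log2 difference of -0.58 did not pass (adjusted p = 0.659 by edgeR). In thinned aged cells with no erythroid marker, Nupr1 was at 373 CPM in pool A and 559 CPM in pool B. With 4 or more erythroid markers it was at 45.5 CPM in pool A (44 cells) and 15.9 CPM in pool B (21 cells), and 13.6% and 4.76% of such cells had a Nupr1 UMI. Of all aged cells at the same depth, 54.0% and 70.1% had a Nupr1 UMI. The share of cells that free RNA alone would give a Nupr1 UMI was not measured, and the shares at 4 or more erythroid markers rest on 44 and 21 cells. The steps in between were not even, with 409 and 599 CPM at 1 marker and 230.2 and 60.6 CPM at 3. Cells with 4 or more basophil or mast markers were at 87.3 CPM (42 cells) and 40.0 CPM (25 cells), and cells with as many neutrophil markers at 139 CPM (72 cells) and 24.7 CPM (27 cells). For neutrophil markers the peak was not at 0 but at 1 or 2 markers, with 410.1 CPM in aged A at 2 and 591 CPM in aged B at 1. Prtn3, a member of this list, was at 966 and 1231 CPM in aged A and aged B, against 174 and 49.7 CPM for Elane and 248 and 72.3 CPM for Mpo. It was called higher in aged cells with Nupr1 in the split below (log2 difference 0.22, adjusted p = 0.000111 by edgeR). The part of Prtn3 in the counts at 1 or 2 markers was not tested. Cells with 4 or more megakaryocyte markers kept 123 CPM (38 cells) and 139 CPM (36 cells). In the cycle, Nupr1 went from 403 and 607 CPM in cells with no mitosis marker to 131 and 211 CPM in cells with 4 or more, and from 429 and 631 CPM with no S-phase marker to 149 and 249 CPM with 4 or more. For all 6 of these lists the 95% Poisson intervals at 0 and at 4 or more markers did not overlap in either aged pool. The intervals cover counting error only, not the spread between cells or between pools, so this is a description and no test.

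In the opposite direction, Nupr1 was higher in cells with more HSC markers. It went from 118 CPM in aged A cells with no HSC marker to 458 CPM in those with 4 or more, and from 312 to 658 CPM in aged B. Among aged cells that were neither lineage, mitotic nor S-phase cells the range was narrower in pool B, from 538 CPM with 0 to 705 CPM with 5 markers, than in pool A, from 130 CPM (23 cells) to 490.4 CPM. With 6 or more markers the level did not climb further, at 623 CPM in pool B (76 cells) and 486 CPM in pool A (186 cells). Cells with 4 or more interferon-response genes also stood high, at 626 CPM (58 cells) and 773 CPM (100 cells), against 345 and 513 CPM in cells with none. For immediate-early genes, which aged A held at a higher level, the steps were 246 to 399 CPM in pool A and 499 to 667 CPM in pool B. These counts within pools describe cells of 2 pools and were not tested.

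**Figure D3:**
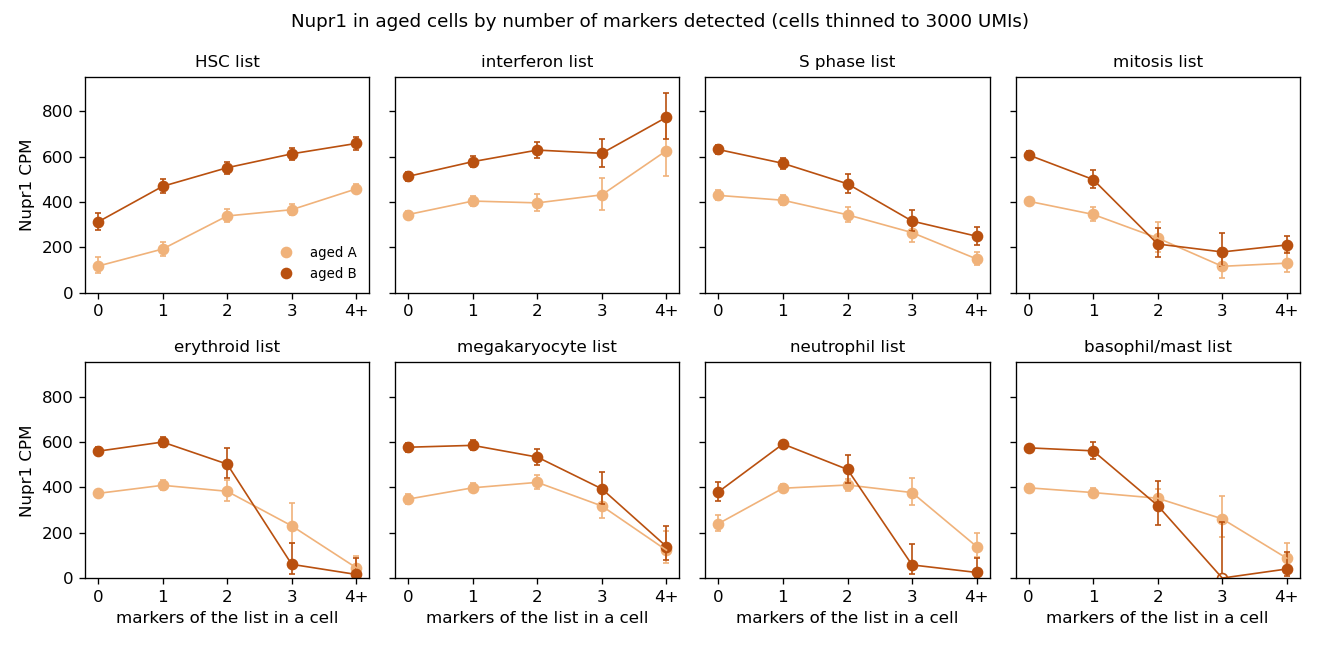
Nupr1 level (CPM) of aged cells thinned to 3000 UMIs, by the number of markers of each of 8 lists detected in the cell, in aged A and aged B, with exact 95% Poisson intervals and open points for under 20 cells. Levels climb with HSC markers (118 to 458 and 312 to 658 CPM) and drop with erythroid markers (373 to 45.5 and 559 to 15.9 CPM).

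A shift in the mix of classes was measured beside the age difference. With the class shares of the young pool of its platform, aged A would stand at 351 CPM and aged B at 492 CPM, which are 27.3 and 23.7 times the young levels. The age difference of Nupr1 itself was not found to vary between classes. The class by age term against HSC marker cells was 0.90 on the log2 scale for neutrophil cells (standard error 0.46), 0.57 for erythroid cells (standard error 0.59), -0.58 for mitotic cells (standard error 0.46), 0.20 for S-phase cells (standard error 0.35) and 0.02 for megakaryocyte cells (standard error 0.38). No adjusted p was under 0.05 (lowest 0.838, edgeR), in a fit of 11231 genes that called few genes for any class: 0.0801% lower for erythroid cells, 0.0267% lower and 0.0089% higher for megakaryocyte and for T or innate lymphoid cells, 0.0178% lower and 0.0089% higher for neutrophil cells, 0.0089% lower for mitotic and unclassified cells, 0.0089% higher for cells with B markers and 0% in every other direction. The terms of T or innate lymphoid and B marker cells rested on 2 Nupr1 UMIs in the young cells of each class. The terms above are at full depth, and some changed sign in cells thinned to 3000 UMIs. There they were 1.06 for neutrophil, -1.08 for erythroid, -1.61 for mitotic, -0.61 for S-phase and -0.39 for megakaryocyte cells, and none passed. Without aged B the neutrophil term was 1.35 (adjusted p = 0.0217 by edgeR).

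Genomic neighbours were examined next. GENCODE lists 15 other genes within 100 kb of Nupr1, of which 10 were in the files with enough counts to test between ages, and none overlaps it. Sult1a1 was the 1 called gene of these 10, in a fit that called 1.6% of genes higher and 0.428% lower in aged pools. This sulfotransferase gene lies 42004 bases from Nupr1 on the same strand, and its level was 27.1 and 37.3 CPM in young A and young B and 249 and 319 CPM in aged A and aged B (log2 difference 3.10, standard error 0.19, adjusted p = 0.00856 by edgeR). The ages did not overlap for Sult1a1, nor for Eif3c, Cln3, Il27, Sgf29, Slx1b and Coro1a. How many of all genes separate the ages in this way was not counted. The 9 others, Eif3c, Cln3, Apobr, Il27, 2510046G10Rik, Sgf29, Slx1b, Bola2 and Coro1a, differed by -0.64 (Coro1a) to 1.34 (Il27) on the log2 scale and 0 of 9 passed. Sgf29, whose end overlaps that of Sult1a1 on the other strand, was at 60.9 and 73.8 CPM in young and 81.0 and 89.0 CPM in aged pools.

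Neither the eIF2α kinases nor Atf4, which lie upstream of Nupr1 in the stress response, passed the test between ages. The 4 kinases that phosphorylate eIF2α, Eif2ak1 (HRI), Eif2ak2 (PKR), Eif2ak3 (PERK) and Eif2ak4 (GCN2), had log2 differences of 0.03, -0.10, 0.35 and -0.26, and 0 of 4 passed. Atf4 mRNA was at 112 and 64.6 CPM in young A and young B and at 89.9 and 68.8 CPM in aged A and aged B, so the ages overlapped (log2 difference -0.17, standard error 0.20). ATF4 is controlled mainly by translation, which these counts do not measure. Of 26 listed ATF4 targets, 25 were tested by edgeR, 1 was called higher and 0 lower, a share to be read against the 1.6% of all genes called higher. Their median log2 difference was 0.37, against 0.01 over all genes tested.

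Atf3, a stress transcription factor that is also an immediate-early gene, was the target called by edgeR. It was at 0.494 and 0.122 CPM in young A and young B, 30.6 CPM in aged A and 1.71 CPM in aged B (log2 difference 5.54, standard error 0.43, adjusted p = 0.0140 by edgeR). The aged pools lay far apart, and aged A was also the pool rich in immediate-early transcripts. Ppp1r15a, which encodes the phosphatase subunit that reverses eIF2α phosphorylation, was at 61.6 and 23.4 CPM in young and 132 and 44.5 CPM in aged pools and did not pass (log2 difference 0.96, adjusted p = 0.0596 by edgeR). DESeq2, with 528 genes called in all, called Atf3, Ppp1r15a (0.92, adjusted p = 0.0162) and Vldlr (1.20, adjusted p = 0.0121) higher. It called Phgdh lower (-0.85, adjusted p = 0.0220). Trib3, a pseudokinase gene downstream of both ATF4 and Nupr1, was at 18.4 and 19.1 CPM in young and 37.9 and 23.0 CPM in aged pools (log2 difference 0.60, standard error 0.21). Ddit3, which encodes CHOP, was at 27.6 and 32.4 CPM in young and 44.3 and 36.1 CPM in aged pools (log2 difference 0.37, standard error 0.18). Both were higher in each aged pool than in each young pool, but neither passed the test. The share of all genes that separate the ages in this way was not counted. Asns, the asparagine synthetase gene, was at 16.8 and 19.9 CPM in young and 25.5 and 31.6 CPM in aged pools (log2 difference 0.58), while the serine and folate enzymes Phgdh and Mthfd2 had log2 differences of -0.81 and -0.71. The enzymes of amino acid supply on this list therefore did not share a sign.

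Endoplasmic reticulum chaperones and Nupr1 partners showed no call by edgeR. Of 15 genes of the unfolded protein response 0 passed, with a median log2 difference of 0.01, and Hspa5, the chaperone BiP, was at 192 and 247 CPM in young and 351 and 210.1 CPM in aged pools. Of 14 partner or downstream genes 0 passed by edgeR. Among them, the acetyltransferase gene Ep300 and the dosage compensation factor Msl1, both known to bind Nupr1, had log2 differences of -0.03 and -0.15, and Trp53 had -0.29. Cdkn1a, the p21 cell cycle inhibitor, was at 7.41 and 10.1 CPM in young pools, 58.6 CPM in aged A and 16.2 CPM in aged B (log2 difference 1.80, standard error 0.54, adjusted p = 0.197 by edgeR). DESeq2, which called 528 genes between ages against 275 by edgeR, called Cdkn1a higher (log2 difference 1.75, adjusted p = 0.00519). The paralogue Nupr1l was at 8.86 and 6.22 CPM in young and 10.9 and 16.0 CPM in aged pools (log2 difference 0.76, standard error 0.33, adjusted p = 0.360 by edgeR). Of 12 genes of iron handling and lipid peroxide defence, which Nupr1 is linked to, 0 passed, and Gpx4 was between 693 and 769 CPM in every pool. Known changes were put into simulated counts of the age comparison, only in genes above the median level. The simulation gave every gene the same spread and held no platform difference. The test found 7% of changes of 1 log2 unit and 90% of those of 2 log2 units. A change of 1 log2 unit would thus mostly have been missed under that setting. The share found among listed genes of lower level or wider spread was not measured.

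**Figure D4:**
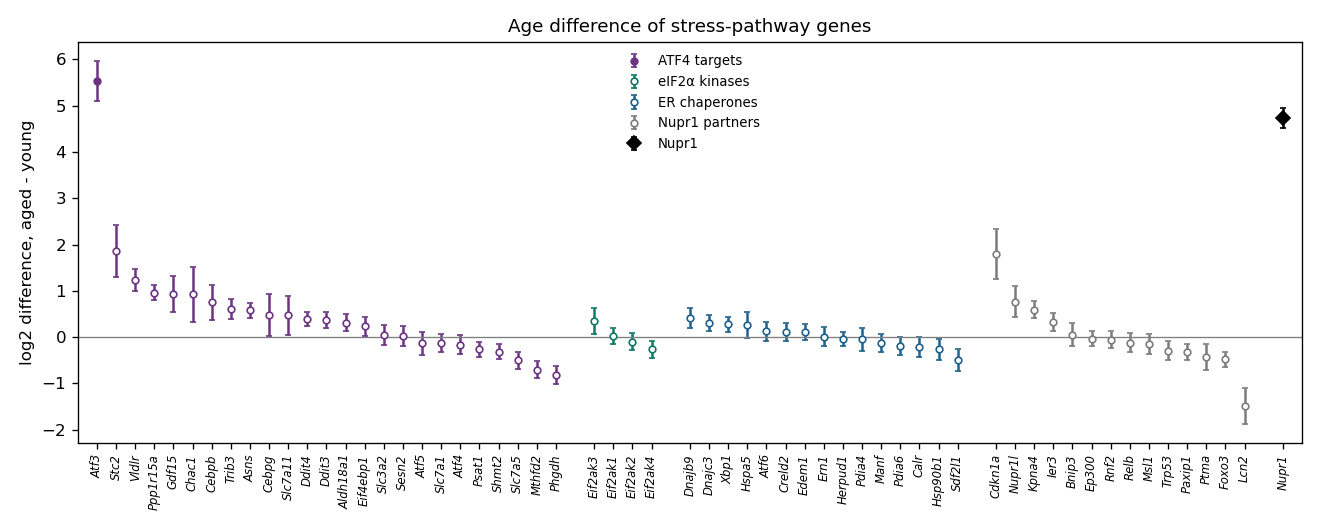
Log2 difference, aged minus young, of each tested gene of 4 stress lists and of Nupr1, with standard errors from the edgeR fit. Filled circles passed the edgeR test and open circles did not, and Nupr1 (black) was chosen for this difference and is not tested. Nupr1 (4.74) and Atf3 (5.54) stand far above the other genes, which lie between -1.49 (Lcn2) and 1.86 (Stc2).

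Because aged cells differed widely in Nupr1, cells of the same pool with and without it were compared, leaving out lineage, mitotic and S-phase cells. These classes were set after thinning, so cells with fewer than 3 markers of such a list stayed in. After thinning to 3000 UMIs, aged A had 723 cells with 2 or more Nupr1 UMIs and 924 with none, and aged B had 1703 and 830. Median depth before thinning was 5687.0 and 5518.0 UMIs in pool A and 6331.0 and 6397.0 in pool B. Cells with Nupr1 held on average 3.79 HSC markers against 3.46 without in pool A, and 2.90 against 2.62 in pool B, whose part in the differences was not tested. Of 10765 genes, 34 were higher (0.316%) and 41 lower (0.381%) in the cells with Nupr1 by edgeR's quasi-likelihood test, with pool as a block and Nupr1 left out. All 34 higher genes moved the same way in both pools, and 37 of the 41 lower ones did. They were called on these same pools, so this is a description and no replication. The share of all genes that move the same way in both pools was not counted.

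The largest difference among the higher genes was that of Sbspon. This thrombospondin-domain gene was at 63.2 CPM with and 34.6 CPM without Nupr1 in aged A, and at 124 and 69.9 CPM in aged B (log2 difference 0.87, standard error 0.11, adjusted p = 1.69e-07 by edgeR). Cldn5, a tight junction protein gene, was at 180.5 against 101 CPM in pool A and 193 against 125 CPM in pool B (log2 difference 0.75, adjusted p = 3.34e-09 by edgeR). The neighbour Sult1a1 was at 348 against 249.6 CPM in pool A and 441 against 301 CPM in pool B (log2 difference 0.55, standard error 0.06, adjusted p = 1.34e-08 by edgeR). Each of these 3 genes passed in 10 of 12 alternatives, the exceptions being DESeq2 and the fit without a block. The rest of the 10 largest were Ifit1, an interferon-induced gene, Zg16, Ramp2, which encodes a partner of the adrenomedullin receptor, the junction gene Jam2, the matrix gene Matn4, the ubiquitin ligase gene Traip and the imprinted noncoding RNA Meg3, with log2 differences of 0.43 to 0.76. These held less often, with Jam2 called in 6 of 12 alternatives, Zg16 and Traip in 7, Ifit1, Ramp2 and Matn4 in 8 and Meg3 in 9. Of the 10 HSC markers, Mllt3 (0.37) and Procr, which encodes EPCR (0.36), were called higher and 0 lower, and 2 of 10 interferon genes were higher (Ifit1 and Rtp4). Of 22 tested ATF4 targets, 15 endoplasmic reticulum genes, 13 partners and 4 eIF2α kinases, 0 passed. Ftl1, the ferritin light chain, was the 1 called gene among 11 of iron and lipid peroxide defence (log2 difference 0.16).

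Among the genes lower in cells with Nupr1, Cd48, a surface receptor that long-term stem cells lack, was at 5.08 against 14.8 CPM in aged A and 0.784 against 8.03 CPM in aged B (log2 difference -2.15, standard error 0.39, adjusted p = 0.000544 by edgeR), and it was called in 8 of 12 alternatives. Plac8 was at 65.5 against 133 CPM and 77.2 against 163 CPM (log2 difference -1.03, adjusted p = 1.50e-11 by edgeR). Cd34, a marker gained as stem cells mature in the mouse, was at 65.5 against 129 CPM and 41.7 against 61.8 CPM (log2 difference -0.75). Cdk6, a kinase of cell cycle entry, had a log2 difference of -0.63, and Nkg7, Cd52, Tyrobp, Tk1 and Bex6 had log2 differences between -3.55 and -1.35. Of the lineage markers, Pf4 (-1.17), Car1 (-1.03), Cpa3 (-1.36), Igkc (-0.70) and Ighm were lower and Prtn3 (0.22) was higher. No mitosis or S-phase marker passed, but Ung, the leading gene of S-phase cells, was lower (-1.19). The part of cells with a few lineage or cycle markers in these calls was not tested. The largest log2 differences, of the globin genes Hba-a1, Hba-a2, Hbb-bs and Hbb-bt and of Ighm, rested largely on single cells. Of all Hba-a1 UMIs, 51.0% were in 1 cell of aged B, and 39.0% of Ighm UMIs were in 1 cell of aged A, with no lower level in aged B (7.05 against 6.02 CPM). Ccl5 had 61.2% of its UMIs in 1 cell. Igkc had 19.9% of its UMIs in 1 cell of aged A, and it was not lower in both pools. In all, 7 of the 41 lower genes and 0 of the 34 higher genes had over 20% of their UMIs in 1 cell.

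The number of called genes depended on the fit. DESeq2 called 6 genes, all of them among the 75, namely Plac8, Nkg7, Tmsb10 and Cd52, which were lower, and Ifitm1 and Ifitm3, which were higher. Without aged A, 37 of the 75 genes remained called, and without aged B, 25 remained. In HSC marker cells alone 24 genes were called, of which 22 were among the 75.

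**Figure D5:**
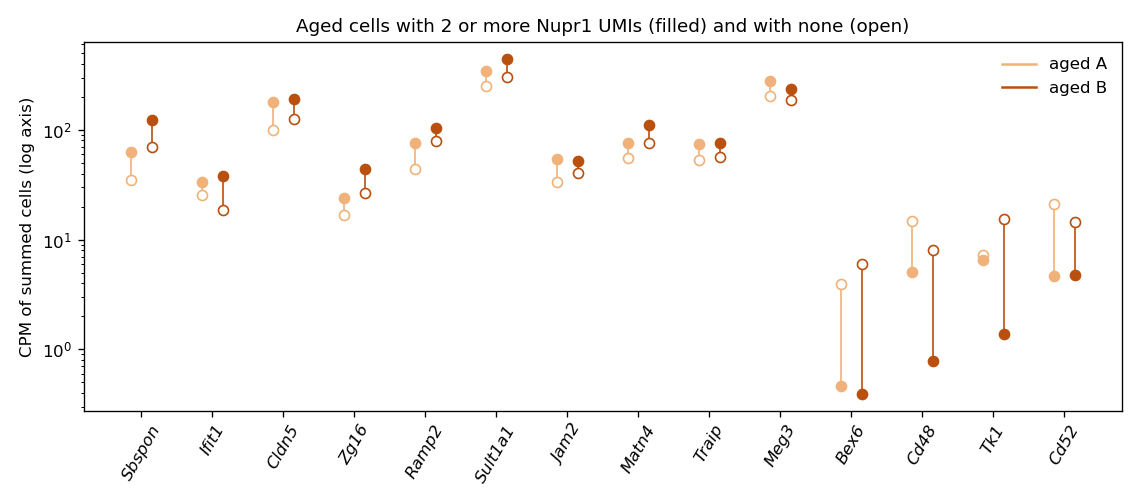
Level (CPM on a log axis) of the genes with the largest called differences between aged cells with 2 or more Nupr1 UMIs (filled) and with none (open), in aged A and aged B, leaving out genes with over 20% of their UMIs in 1 cell. In both pools the first 10 genes, from Sbspon to Meg3, are higher in cells with Nupr1 and the last 4, Bex6, Cd48, Tk1 and Cd52, are lower.

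The few young cells with Nupr1 were set against the other young cells of their pool. With at least 1 UMI after thinning there were 113 such cells in young A and 89 in young B, against 3024 and 1470 without. A single UMI can come from free RNA, and the share of cells with such a UMI was not measured in the young pools. Of young cells with 4 or more erythroid markers, 0 of 87 in young A and 0 of 23 in young B had a Nupr1 UMI (exact 95% upper limits 4.15% and 14.8%), so how many of the young cells with a UMI express Nupr1 was not measured. Of 10765 genes 9 were higher (0.0836%) and 19 lower (0.176%) in cells with a UMI. Clu, the chaperone clusterin, was at 32.5 against 6.94 CPM in young A and 41.2 against 8.62 CPM in young B (log2 difference 2.19, standard error 0.40, adjusted p = 0.00133 by edgeR). Sult1a1 was at 70.8 against 46.7 CPM and 169 against 53.5 CPM (log2 difference 1.14, standard error 0.21, adjusted p = 0.00169 by edgeR). Apoe, the lipid carrier, was at 871 against 561 CPM and 1199 against 583 CPM (log2 difference 0.79, adjusted p = 5.66e-11 by edgeR). Mycn and Gng11 were also higher in both pools. Klf2 was higher too, with 224 of its UMIs in young A and 10 in young B. Spp1 and Ackr1 were called, yet they had 95.4% and 61.5% of their UMIs in 1 cell, and neither was higher in pool B.

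Lower in young cells with Nupr1 were Plac8 at 165 against 453 CPM and 120 against 543 CPM (log2 difference -1.80, adjusted p = 4.34e-14 by edgeR) and Cd34 at 142 against 283 CPM and 109 against 229 CPM (log2 difference -1.06, adjusted p = 2.48e-05 by edgeR). Cd48 was at 2.95 against 28.99 CPM in pool A and at 0 against 35.4 CPM in pool B. Nkg7, Cd52, Serpinb1a, Kdm5b and Snx14 were lower as well, while Hba-a1 and Hba-a2 had over 90% of their UMIs in 1 cell. Ptma, which encodes prothymosin alpha, a known partner of Nupr1, was the 1 called gene of the partner list (log2 difference -0.22, standard error 0.04, adjusted p = 0.00319 by edgeR). DESeq2 called 14 genes, of which 11 were among the 28, with Clu, Sult1a1, Apoe, Plac8 and Cd34 in both.

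Among the genes called at both ages, Sult1a1 and Apoe were higher and Plac8, Cd34, Cd48, Cd52, Nkg7 and Serpinb1a lower in cells with Nupr1. The young and aged values come from different pools and from different minimums of UMIs, and whether the difference changes with age was not tested. Between ages, in a fit that shares the aged pools, Sult1a1 was 3.10 higher on the log2 scale in aged cells, and Apoe 1.06 higher without passing the test, while Plac8 (-1.83), Cd34 (-1.67) and Cd52 (-2.17) were lower.

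Over 36 sums of class by pool, genes were ordered by their likeness to Nupr1 in log2(CPM + 1). The 10 with the highest Pearson correlation among 11956 genes were Aldh1a1, Clu, Gm10419, Clca3a1, Cldn5, Plscr2, Wwtr1, Vwf, Tm4sf1 and Matn4, with r from 0.938 to 0.959. Aldh1a1 makes retinoic acid, and Vwf is the von Willebrand factor of platelets and platelet-biased stem cells. Since Nupr1 was selected on its age difference and the sums span both ages, genes that separate the ages had to lead this order. The log2 age differences of these 10 ranged from 2.80 to 6.23. The mean of each pool was then taken off, which removes the average age difference but not class differences that vary with age. The 10 were then Pde6h, Meg3, Efcc1, Exoc3l2, Cdkn1c, Hoxa10, Tceal8, Msantd4, Clec1a and Mmrn1, with r from 0.796 to 0.910. Cdkn1c, the p57 cell cycle inhibitor, is known in quiescent stem cells. Of these 10, 4 were called higher between ages, against 1.6% of all genes tested. The sums share pools, depth and the marker lists that made the classes, so these correlations are descriptions over 36 related points. Some young sums were near the floor. In young A and young B, Nupr1 had 0 and 2 UMIs in T or innate lymphoid cells and 2 and 0 in cells with B markers. The part of such low counts in r was not tested.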

How the data were processed

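The authors deposited the 4 pools as raw UMI counts, made with Cell Ranger 2.2.0 on mm10 per the labels. For the annotation, the release is not named in the sources used here. Barcodes more than 2 SD from their pool's mean of log UMIs were left out. Counts were summed per pool, per class and pool, or per pool and Nupr1 split, and tested with edgeR 4.0.16 (quasi-likelihood, TMM, filterByExpr, Benjamini-Hochberg at 0.05) in R 4.3.3, with the pool or platform letter as a block. The letters pair the samples because, in the study's methods, young and aged pools of a letter form one batch (correlation of their deviations from the age means 0.576). DESeq2 1.42.0, RLE scaling, other filters, thinning and leaving out pools were alternatives. The age fit, both splits, the mitosis and B marker class contrasts and the mitosis class by age term were tested on simulated data. Named genes were Nupr1, pathway-list genes, genes within 100 kb, the 10 most correlated genes and the 10 largest called differences in each direction. Members and lists were chosen with earlier results of these data known. Doublets were not removed, and cells with markers of several lineages were left out of classes. Sums of several classes of 1 pool share its animals.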

Additional observations from a re-analysis of the deposited data

How the results depend on the processing

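The aged level of Nupr1 above the young one kept its direction in all alternatives run. Its log2 difference ranged from 4.22 (without aged pool B) to 5.24 (without young pool B) when 1 pool was left out. The number of genes called between ages, 275, was 528 with DESeq2, 774 without the low-count filter and 0 without the replicate block (1103 at an unadjusted p under 0.05), and 0 to 287 with 1 pool left out, 0 being the value without aged pool B (1040 at an unadjusted p under 0.05) and 4 without aged pool A, with the lone pool of an age assumed to vary like the other age. With the pool left out as a replicate block, Nupr1 in mitotic and erythroid cells stayed lower than in HSC marker cells (log2 differences -1.38 and -0.86) but was no longer called. DESeq2 gave -0.84 for erythroid cells, not called. Calls gained were neutrophil cells at 4 markers (-1.39) and at 5 (-3.48), S-phase cells at 5 markers (-1.09) and in thinned cells (-0.85), megakaryocyte cells at 5 markers (-1.51) and in thinned cells (-0.89), and neutrophil cells in thinned cells (-1.02). Leaving out the B marker class, added after seeing the data like the 5-marker minimum, changed no call. The neutrophil class by age term ranged from -0.041 to 2.66 with 1 pool left out and was called only without aged pool B. The 75 genes of the aged split were 6 with DESeq2, 1200 with classed cells included, 24 in HSC marker cells, 0 without the replicate block (36 at an unadjusted p under 0.05) and 34 to 172 with 1 pool left out. The 28 genes of the young split were 14, 109, 4 and 0 (237 at an unadjusted p under 0.05) in the same order, and 55 without the low-count filter. With 1 aged pool left, class differences are values with no test. Under 10 cells in a pool left no value for mitotic, unclassified and T or innate lymphoid cells at 2 markers, for T or innate lymphoid cells at 4 or 5 markers and thinned, for B markers at 5, and for the class by age term of B markers at 4 markers and thinned. At 6.53% and 8.47% of young cells with a UMI, class levels in young pools rest on few counts. The cause of these changes was not tested.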
